A study of Mus musculus with 24 samples.

Results

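The genes described here were *Tmem267*, *Eif4a3*, *Zfp605*, *Snord53*, *Lrmda*, *Plekhb1*, *Sectm1a*, *Vwa1* and *Pak6*, 9 genes of the 18782 that had a probe set of their own on the array. They were selected on the measured difference between hypertensive and normotensive mice, large in both sexes, so the strain differences of these genes are a description and carry no test. Each was read by 1 probe set annotated to that gene alone, which gave 9 probe sets of 28853 on the array. Kidney RNA was taken from the Schlager hypertensive mouse, BPH/2J, and from its normotensive control, BPN/3J, and the study sought genes that differ in hypertension in males and in females. All 24 mice were 12 weeks old, the labels name no treatment, and each strain was represented by 6 males and 6 females with 1 array per mouse. Both are inbred strains bred selectively for high or normal blood pressure, so the strains differ in many loci besides those of blood pressure, and strain and disease state cannot be told apart. Blood pressure was not taken in the mice used for the arrays. In RNA of whole kidney, fewer cells of a type and less RNA per cell cannot be told apart.

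The genes belong to no single pathway. *Eif4a3*, *Snord53* and *Zfp605* act on RNA or chromatin: *Eif4a3* encodes the helicase that anchors the exon junction complex on spliced mRNA, *Snord53* is a C/D box small nucleolar RNA of the class that guides methylation of ribosomal RNA, and *Zfp605* encodes a zinc finger protein. *Sectm1a*, *Vwa1* and *Tmem267* encode a secreted or membrane protein related to a ligand of T cells, a protein of the extracellular matrix that binds perlecan, and a membrane protein of little known function. *Plekhb1* encodes a pleckstrin homology protein of intracellular membranes, *Lrmda* a leucine-rich protein needed for pigment cell differentiation, and *Pak6* a kinase of the p21-activated family.

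Kidney identity was plain in all arrays: 9 of 10 kidney markers were measured, all lay above background, and their mean was 12.12 to 12.39 log2 units. Transcripts of other organs varied within groups. Those of the adrenal cortex also differed in group median between the sexes, and those of adipocytes also between the strains in females. The mean of 10 hepatocyte genes ran from 6.53 to 12.26, with arrays 2 and 5 of the BPN/3J females highest, that of 8 adrenal cortex genes from 5.37 to 10.23, that of 7 adipocyte genes from 7.18 to 9.39 and that of 5 leukocyte genes from 6.87 to 7.45. The group medians of the adrenal cortex genes were 6.19 and 6.42 in BPN/3J and BPH/2J males and 9.15 and 9.66 in BPN/3J and BPH/2J females. Adipocyte genes were highest in BPH/2J females, at 8.34 to 9.39, and did not overlap with BPN/3J females, at 7.34 to 8.29. The part of these transcripts of other organs in the results was not tested. Without arrays 2 and 5 of the BPN/3J females the strain difference of the 9 genes in females was −2.50 for *Tmem267*, −1.90 for *Eif4a3*, 2.23 for *Zfp605*, 2.64 for *Snord53*, −2.05 for *Lrmda*, 1.99 for *Plekhb1*, −2.24 for *Sectm1a*, −1.03 for *Vwa1* and −0.83 for *Pak6*, close to the values with all arrays given below.

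The start of transcription is shown for the gene with the largest fall in males and for a gene that rose, because their windows differ in base composition. Both are RefSeq windows of GRCm38.p6, from 250 bases before to 50 after the start, 5′ to 3′ on the plus strand, and capitals mark the GC box GGGCGG on either strand.
*Tmem267*, chr13:119487836-119488135: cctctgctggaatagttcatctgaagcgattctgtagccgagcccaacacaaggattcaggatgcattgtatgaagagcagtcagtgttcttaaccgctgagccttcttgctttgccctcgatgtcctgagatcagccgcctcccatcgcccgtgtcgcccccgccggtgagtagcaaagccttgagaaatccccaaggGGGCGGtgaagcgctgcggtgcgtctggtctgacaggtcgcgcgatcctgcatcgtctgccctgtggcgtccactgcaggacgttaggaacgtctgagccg
*Zfp605*, chr5:110109842-110110141: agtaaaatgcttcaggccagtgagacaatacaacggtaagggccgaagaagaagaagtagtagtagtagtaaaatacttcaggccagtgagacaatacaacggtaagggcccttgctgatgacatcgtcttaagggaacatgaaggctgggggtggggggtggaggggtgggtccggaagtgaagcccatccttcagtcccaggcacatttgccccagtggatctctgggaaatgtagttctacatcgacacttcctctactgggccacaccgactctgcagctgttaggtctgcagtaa
The *Tmem267* window shown held 22 CG dinucleotides and 1 GC box, and the *Zfp605* window held 7 and 0. *Tmem267* has another window at a start further downstream, not printed, with 50 CG and 4 GC boxes. Of all 32851 RefSeq windows of this length 35.7% hold a GC box, and their median number of CG is 7. The 6 genes that have such windows, 9 windows in all, held 3 to 50 CG. Among other genes lower in BPH/2J, the *Eif4a3* window held 1 GC box, that of *Lrmda* 0, and those of *Pak6* 0 and 2. The windows of *Plekhb1*, which was higher in BPH/2J, held 0. These are descriptions of the letters and say nothing of which factors act there.

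**Figure D1:**
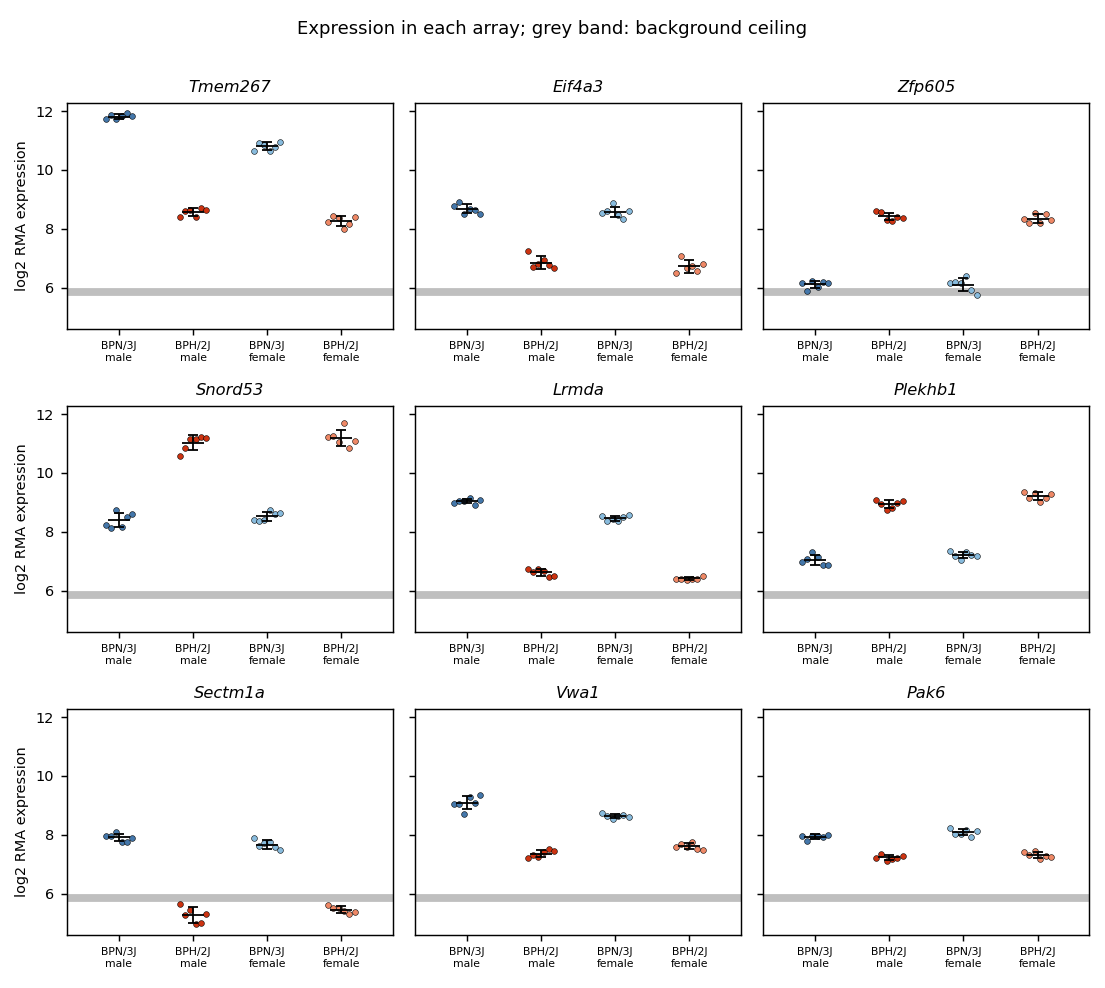
Log2 RMA expression (vertical axis) of the 9 genes in each array, by strain and sex. Points are single arrays (6 per group), bars give the mean with its SD, and the grey band is the background ceiling, 5.75 to 5.94. BPN/3J and BPH/2J arrays do not overlap in either sex for any gene, and only *Sectm1a* in BPH/2J lies below the band on all arrays.

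Of the RNA and chromatin genes, *Eif4a3* was lower and *Snord53* and *Zfp605* were higher in BPH/2J. On the log2 RMA scale *Eif4a3* ran from 8.51 through a median of 8.67 to 8.92 in BPN/3J males and from 6.68 through 6.78 to 7.24 in BPH/2J males. In females it ran from 8.32 through 8.56 to 8.88 in BPN/3J and from 6.5 through 6.69 to 7.08 in BPH/2J. Groups did not overlap, and the difference between BPH/2J and BPN/3J was −1.83 (SE 0.0982) in males and −1.85 (SE 0.103) in females, a 3.55-fold and a 3.6-fold difference. *Snord53* was 8.13 to 8.74 (median 8.37) in BPN/3J males and 10.58 to 11.23 (median 11.14) in BPH/2J males. The female arrays gave 8.37 to 8.73 (median 8.51) in BPN/3J and 10.85 to 11.68 (median 11.16) in BPH/2J. Every BPH/2J array lay above every BPN/3J array of the same sex. The group means differed by 2.62 (SE 0.130) in males and 2.66 (SE 0.119) in females, or 6.15-fold and 6.31-fold. *Zfp605* rested at 5.90 to 6.23 (median 6.17) in BPN/3J males and 8.28 to 8.59 (median 8.39) in BPH/2J males. In females the corresponding values were 5.75 to 6.39 (median 6.16) and 8.20 to 8.53 (median 8.32). The strains differed by 2.31 (SE 0.0707) in males and 2.25 (SE 0.101) in females, 4.95-fold and 4.75-fold.

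*Tmem267*, *Sectm1a* and *Vwa1* were lower in BPH/2J. *Tmem267* had the largest difference, from 11.72 to 11.93 (median 11.83) in BPN/3J males down to 8.39 to 8.71 (median 8.61) in BPH/2J males. Its female values were 10.64 to 10.94 (median 10.82) in BPN/3J and 7.98 to 8.42 (median 8.30) in BPH/2J. The differences were −3.25 (SE 0.062) in males and −2.54 (SE 0.0825) in females, 9.52-fold and 5.81-fold. *Sectm1a* lay at 7.75 to 8.09 (median 7.93) in BPN/3J males and 4.96 to 5.64 (median 5.29) in BPH/2J males. BPN/3J females gave 7.48 to 7.88 (median 7.67) and BPH/2J females 5.32 to 5.61 (median 5.46). The fitted differences were −2.64 (SE 0.108) and −2.21 (SE 0.0681) in males and females. *Vwa1* ran from 8.71 to 9.35 (median 9.06) in BPN/3J males and from 7.20 to 7.53 (median 7.37) in BPH/2J males. Females gave 8.54 to 8.74 (median 8.64) in BPN/3J and 7.47 to 7.75 (median 7.59) in BPH/2J. The differences for *Vwa1* were −1.73 (SE 0.0955) and −1.03 (SE 0.0514) in the same order, 3.31-fold and 2.04-fold.

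*Plekhb1* was higher, and *Lrmda* and *Pak6* were lower, in BPH/2J. *Plekhb1* rose from 6.87 to 7.33 (median 7.04) in BPN/3J males to 8.74 to 9.08 (median 8.98) in BPH/2J males. Females gave 7.05 to 7.35 (median 7.20) and 9.02 to 9.36 (median 9.23), and the differences were 1.89 (SE 0.0827) and 2.00 (SE 0.0646). *Lrmda* ran from 8.92 to 9.15 (median 9.04) in BPN/3J males and from 6.46 to 6.74 (median 6.65) in BPH/2J males. Its female ranges were 8.37 to 8.56 (median 8.46) and 6.37 to 6.51 (median 6.40), with differences of −2.41 (SE 0.0578) in males and −2.05 (SE 0.0431) in females. *Pak6* showed the smallest differences, −0.70 (SE 0.0499) in males and −0.78 (SE 0.0583) in females. Its arrays gave 7.78 to 8.0 (median 7.96) and 7.12 to 7.36 (median 7.22) in males, and 7.94 to 8.23 (median 8.09) and 7.19 to 7.44 (median 7.30) in females.

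All 9 strain differences passed the Bonferroni threshold in both sexes, which the choice of the genes fixes. The same threshold was passed by 2.56% of probe sets in males and 2.36% in females, and 9.65% and 9.34% of probe sets had groups that did not overlap. The pooled SD within groups ran from 0.085 for *Lrmda* to 0.239 for *Snord53*, beside a median of 0.122 over all probe sets, and 7 of the 9 genes had a larger SD than that median. *Snord53* lay at the 94.1 percentile of all SDs, *Eif4a3* at the 86.1 percentile and *Tmem267* at the 56.8 percentile. Among probe sets of similar level the percentile was 98.2 for *Snord53*, 93.3 for *Tmem267*, 88.2 for *Eif4a3* and 82.5 for *Vwa1*. It was 79.2 for *Plekhb1*, 77.1 for *Zfp605*, 72.2 for *Sectm1a*, 22.5 for *Pak6* and 13.6 for *Lrmda*. Ranked by the smaller of the male and female differences, *Snord53* was number 7 and *Tmem267* number 8 of all probe sets and *Pak6* number 333, so the list spans very large to moderate differences.

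**Figure D2:**
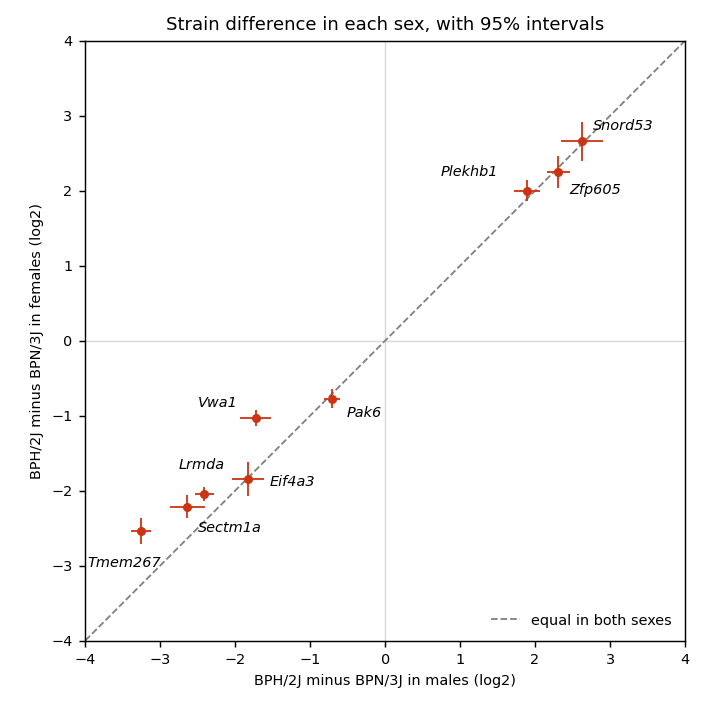
Strain difference, BPH/2J minus BPN/3J, of males (horizontal axis, log2) and of females (vertical axis, log2) for the 9 genes, with 95% intervals and the line of equal difference. *Vwa1*, *Tmem267*, *Lrmda* and *Sectm1a* lie above the line, with a smaller size in females, and the other genes lie on or beside it.

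The label under which these genes were grouped, differences equal in both sexes, did not hold for all of them. The difference between the strain effects of females and males was tested as a strain-by-sex interaction by limma over 24 arrays with Benjamini-Hochberg adjustment, which called 1.76% of all probe sets. The interaction was called for 3 of the 9 genes, each with a strain difference smaller in females. It was 0.71 for *Tmem267* (95% interval 0.495 to 0.932, adjusted p = 0.000217 by limma), 0.69 for *Vwa1* (0.463 to 0.926, adjusted p = 0.000649) and 0.37 for *Lrmda* (0.222 to 0.516, adjusted p = 0.00431). At the Bonferroni threshold, which was used for the strain contrasts, the *Vwa1* (adjusted p = 0.0747 by limma) and *Lrmda* (adjusted p = 0.849 by limma) interactions were not called. For *Sectm1a*, whose BPH/2J arrays were not above background, the interaction was 0.42 (0.149 to 0.698, adjusted p = 0.124 by limma), and it passed with quantile normalisation (adjusted p = 0.0385) and without array 1 of the BPH/2J males (adjusted p = 0.029). For the remaining 5 genes the estimates were small: −0.02 for *Eif4a3* (−0.324 to 0.288), −0.06 for *Zfp605* (−0.321 to 0.205), 0.04 for *Snord53* (−0.344 to 0.42), 0.11 for *Plekhb1* (−0.114 to 0.333) and −0.07 for *Pak6* (−0.23 to 0.0848). A p that misses the threshold does not show that the sexes responded alike, and the genes were partly picked for similar size. Among the 424 probe sets called for strain in both sexes with the same direction, 42 (9.91%) had a called interaction.

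The sexes were compared over both strains, a contrast that the choice of genes did not use. With limma and Benjamini-Hochberg adjustment, 41.4% of all probe sets differed between the sexes, and 4 of the 9 genes did. *Tmem267* was lower in females by 0.66 on the log2 scale (adjusted p = 2.83e-10 by limma) and *Lrmda* by 0.39 (adjusted p = 2.59e-09 by limma). *Plekhb1* was higher in females by 0.22 (adjusted p = 0.00162 by limma) and *Pak6* by 0.12 (adjusted p = 0.011 by limma). The *Pak6* call was lost with equal array medians (adjusted p = 0.0919 by limma) or quantile normalisation (adjusted p = 0.172). The group medians of the adrenal cortex genes differed by sex too, at 6.19 to 6.42 in males and 9.15 to 9.66 in females. Single arrays overlapped, from 5.43 to 8.81 in BPN/3J males and 5.45 to 8.43 in BPH/2J males. Those of BPN/3J females ran from 5.37 to 10.23 and those of BPH/2J females from 5.39 to 9.85. The part of the adrenal cortex genes in the sex differences of the members was not tested.

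Within a strain the sexes differed in 29.2% of probe sets in BPN/3J and 28.9% in BPH/2J, with 5 and 4 of the 9 genes called. In BPN/3J, *Tmem267* was lower in females by 1.02, *Lrmda* by 0.58, *Vwa1* by 0.45 (adjusted p = 0.00175 by limma) and *Sectm1a* by 0.23, and *Pak6* was higher by 0.16. In BPH/2J, *Tmem267* was lower by 0.30 and *Lrmda* by 0.21, while *Plekhb1* was higher by 0.28 and *Vwa1* by 0.25 (adjusted p = 0.0104 by limma). *Vwa1* thus had opposite sex differences in the strains, and over both strains its difference was −0.10 (adjusted p = 0.158 by limma), which passed with equal array medians (adjusted p = 0.0386) and without array 3 of the BPN/3J males (adjusted p = 0.0183). *Eif4a3*, *Zfp605* and *Snord53* were not called for sex in either strain.

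Whether one strain lacks the transcript was asked by setting each strain's level against a background reference. It held 1300 probe sets of olfactory, vomeronasal and taste receptors, keratin-associated proteins and beta-defensins, families chosen as genes of other tissues. Any members of these families that are expressed in kidney were not taken out. The 95th percentile of the reference, called the background ceiling here, was 5.75 to 5.94 across arrays, and its median 4.15 to 4.31. A probe set under the ceiling has a bound only, and levels of different probe sets are not compared with each other.

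Only *Sectm1a* was not above the ceiling in the lower strain on any array, with 0 of 12 BPH/2J arrays above it. Relative to that bound, *Sectm1a* was at least 4.05-fold higher in BPN/3J males and at least 3.51-fold higher in BPN/3J females, beside 6.22-fold and 4.64-fold for the measured values. *Zfp605* was above the ceiling on 10 of 12 BPN/3J arrays. The other 7 genes were above it on all 12 arrays of their lower strain. Sex-linked genes show where probe sets of an absent transcript read on these arrays. *Eif2s3y*, *Kdm5d* and *Uty*, which lie on the Y chromosome, and *Xist*, the RNA that silences an X chromosome, were above the ceiling on 6 of 12 arrays of each strain, those of the sex that makes them. *Tmem267* had the largest difference of the 9 genes, and its BPH/2J level of 7.98 to 8.71 stayed above the ceiling.

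**Figure D3:**
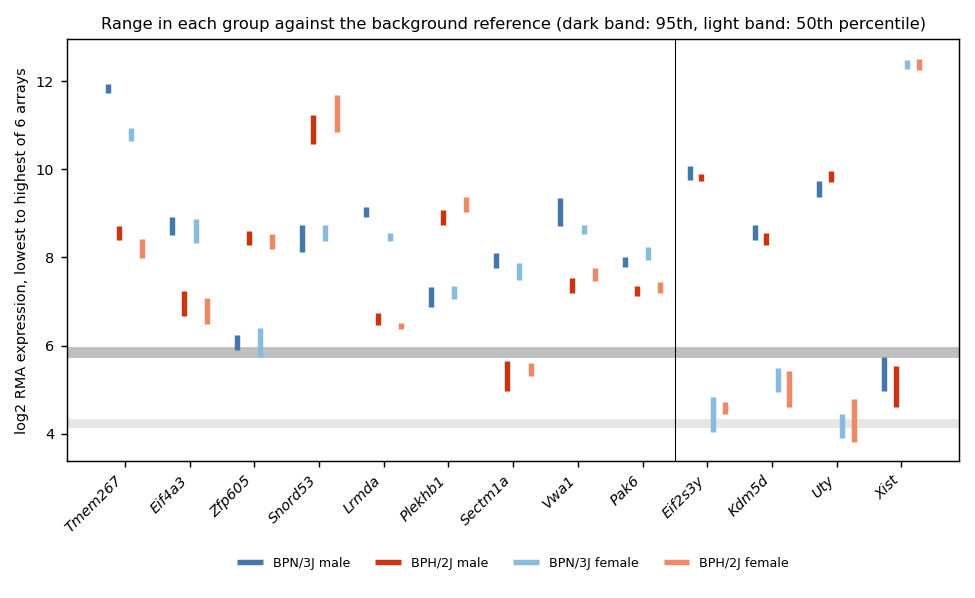
Lowest to highest log2 RMA expression of 6 arrays in each group for the 9 genes (left) and for 4 sex-linked genes (right), with the 95th (dark) and 50th (light) percentile of the background reference. *Sectm1a* in BPH/2J lies below the dark band, *Zfp605* in BPN/3J reaches it, and the sex-linked genes fall to it or below in the sex that lacks them.

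Probe sets related to a member differed from it in size. *Eif4a3* has other probe sets annotated together with *Eif4a3l1*, a near-identical gene, so their signal cannot be split between the genes. These 2 probe sets, at 9.72 to 10.61 log2 units, differed by −0.08 (SE 0.0383, adjusted p = 0.2) and −0.13 (SE 0.0456, adjusted p = 0.066) in males, by limma with Benjamini-Hochberg adjustment. In females they differed by −0.14 (SE 0.0416, adjusted p = 0.041 by limma) and −0.17 (SE 0.0434, adjusted p = 0.0161), against −1.83 and −1.85 for the single-symbol probe set. The single-symbol probe set therefore differed by far more than either shared one, and signals of single probes were not analysed here. Whether the strains differ in sequence under the probes was not tested, for this gene or any other member.

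*Snord53* is encoded in an intron of *Wdr43*, a gene of ribosome biogenesis. *Wdr43* differed by 0.03 in males (adjusted p = 0.747 by limma) and −0.03 in females (adjusted p = 0.696 by limma), beside 2.62 and 2.66 for *Snord53*. Of 29 other measured *Snord* genes, 4 were higher and 0 lower in BPH/2J in males, and the same counts held in females, against 7.48% higher and 7.70% lower of all probe sets in males and 8.01% and 6.48% in females. The 4 were *Snord15a*, *Snord58b*, *Snord73b* and *Snord82*, called in both sexes. *Snord15a* differed by 0.79 in males and 0.68 in females, *Snord73b* by 0.79 and 0.39, and *Snord82* by 1.04 and 0.93, while the group means of *Snord58b*, 4.02 to 5.03, all lay below the ceiling.

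*Sectm1b*, the paralogue beside *Sectm1a*, was also lower in BPH/2J, with differences of −1.96 in males (SE 0.0658, adjusted p = 2.51e-10 by limma) and −1.49 in females (SE 0.0613, adjusted p = 2e-09 by limma), and its own strain-by-sex interaction was 0.47 (adjusted p = 0.00428 by limma). At 8.77 to 9.53 in BPH/2J it lay above the ceiling on all arrays. Whether the probe sets of the paralogues share signal was not tested. *Cd7*, which encodes a T-cell receptor of the human relative of these proteins, differed by −0.30 in males (adjusted p = 0.0455 by limma) and −0.04 in females (adjusted p = 0.772 by limma).

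**Figure D4:**
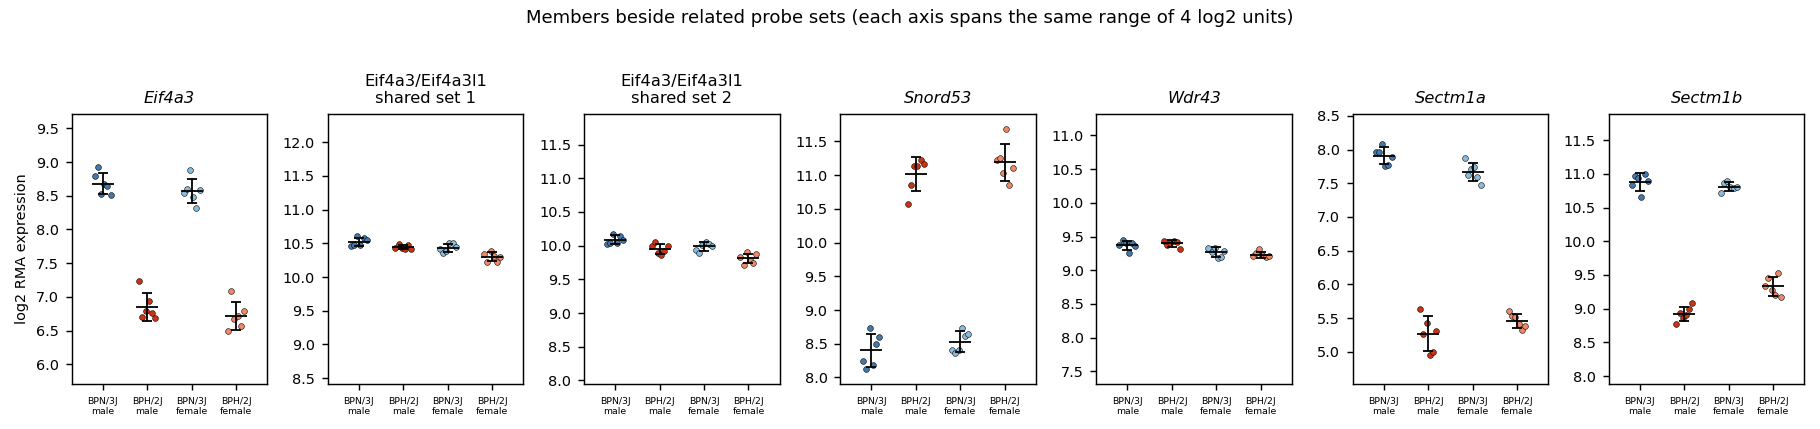
Log2 RMA expression by array of *Eif4a3*, *Snord53* and *Sectm1a* beside related probe sets, with every axis spanning the same 4 log2 units; points are arrays and bars the mean with its SD of 6 arrays. Shared probe sets of *Eif4a3* and *Wdr43* lie nearly level across groups, and *Sectm1b* falls in BPH/2J as *Sectm1a* does.

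Partners and relatives of the other genes were counted with limma and Benjamini-Hochberg adjustment across the array, where 7.48% of probe sets were higher and 7.70% lower in males, and 8.01% and 6.48% in females. In both sexes, 1210 of the 28853 probe sets were called higher and 1124 lower. Of 15 exon junction and decay partners of *Eif4a3*, 1 was higher and 3 were lower in males, 1 and 0 in females, and none in both sexes. *Eif4a2*, a translation initiation helicase, differed by 0.18 in males (adjusted p = 0.0132 by limma) and 0.15 in females (adjusted p = 0.0751 by limma). Of 14 genes of p21-activated kinase signalling, 2 were higher and 2 lower in males, 0 and 1 in females, and *Pak4* differed by −0.21 in males (adjusted p = 0.0177 by limma) and 0.01 in females. Of 14 genes of the perlecan matrix, which holds partners of *Vwa1*, 2 were higher and 1 lower in males and 4 and 0 in females. *Matn2*, a matrix adaptor protein, was higher in both, by 0.45 and 0.62, while *Hspg2*, which encodes perlecan, differed by −0.21 in males (adjusted p = 0.0378 by limma) and 0.04 in females. Of 345 zinc finger genes taken with *Trim28*, a corepressor, 36 were higher and 23 lower in males, 34 and 17 in females, and 19 and 13 in both. *Zfp830* showed the largest rise, by 1.5 and 1.13. Of 28 genes of the pleckstrin homology family, 4 and 2 were called in males and 6 and 4 in females. Of 12 pigment genes, 1 was higher and 1 lower in males and 1 and 0 in females. *Rab38*, a GTPase of melanosome transport, differed by −0.21 in males (adjusted p = 0.0276 by limma), and the gene higher in both sexes was *Slc24a5*, a melanosome exchanger, by 0.58 and 0.61, with BPN/3J means of 5.36 and 5.52 below the ceiling.

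The 3 nearest measured genes on each side of every member, in the order of the RefSeq annotation, gave 54 neighbours. Of these, 6 (11.1%) were called for strain at the Bonferroni threshold in males and 7 (13.0%) in females, beside 2.56% and 2.36% of all probe sets. In both sexes and the same direction 5 were called: *4833420G17Rik* and *Hmgcs1*, the cytosolic HMG-CoA synthase, beside *Tmem267*, *Gaa*, the lysosomal alpha-glucosidase, and *Tbc1d16* beside *Eif4a3*, and *Sectm1b* beside *Sectm1a*. The male and female differences were −1.13 and −1.39 for *4833420G17Rik*, −0.74 and −0.76 for *Hmgcs1*, −0.54 and −0.46 for *Gaa*, and −0.70 and −0.54 for *Tbc1d16*. The neighbours of *Zfp605*, *Lrmda* and *Plekhb1* had no call in either sex. *Snord53*, *Vwa1* and *Pak6* each had 1 neighbour called in one sex: *Clip4* by 1.06 and *Mrpl20* by 0.69 in females, and *Bub1b* by −0.48 in males. In the sex without a call they differed in the same direction, *Clip4* by 0.32 and *Mrpl20* by 0.48 in males and *Bub1b* by −0.54 in females.

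**Figure D5:**
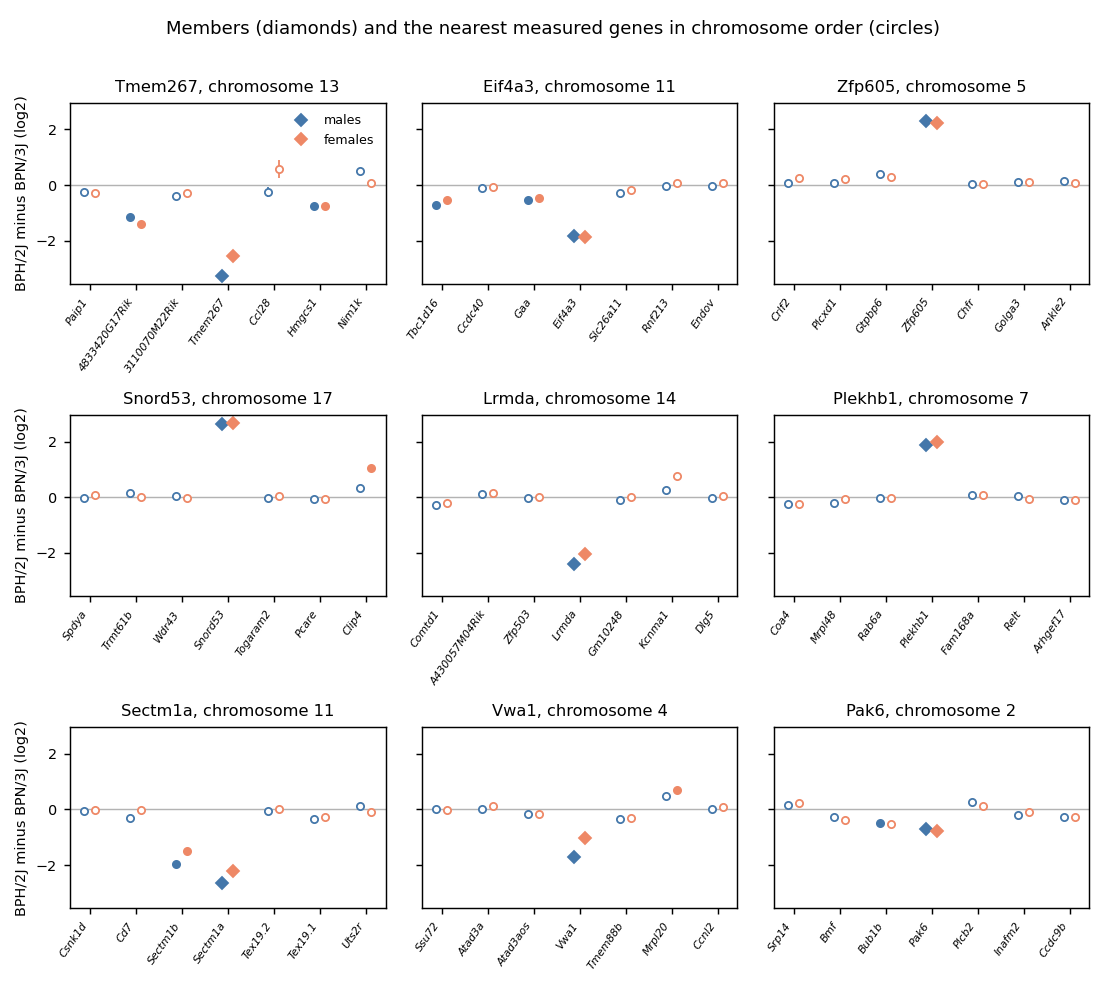
Difference between BPH/2J and BPN/3J (log2, vertical axis) for each member (diamonds) and its 3 nearest measured genes on each side in chromosome order (circles, with SE; filled where called at the Bonferroni threshold). Called neighbours lie beside *Tmem267*, *Eif4a3* and *Sectm1a* in both sexes, and *Zfp605*, *Lrmda* and *Plekhb1* have no called neighbour.

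Genes whose deviations from the group means most followed each member over the 24 arrays were found by Pearson r among single-symbol probe sets, as a description without a test. They are the highest r among 21159 such probe sets, and how high r would run by chance in so many was not assessed. For *Snord53* they were *Rny3*, a Y RNA (r = 0.8), *Snord52* (r = 0.79) and *Gas5*, the host gene of several small nucleolar RNAs (r = 0.75). For *Sectm1a* they were *Olfr624* (r = 0.81), *Olfr881* (r = 0.8) and *Gje1* (r = 0.8), and the first pair belong to the background reference. For *Pak6* the highest was *Asb4* (r = 0.81), for *Plekhb1* *Gjb6* (r = 0.78), for *Lrmda* *Tnn* (r = 0.77), for *Zfp605* *Olfr417* (r = 0.75), for *Tmem267* *Elf4* (r = 0.74), for *Vwa1* *Rplp1* (r = 0.74) and for *Eif4a3* *Ifna11* (r = 0.71).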

How the data were processed

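Kidney RNA of 24 mice was measured on Affymetrix Mouse Gene 1.0 ST arrays, 6 per strain and sex. RMA was run by the authors, and their deposited table holds log2 expression per probe set, from 2.12 to 14.55. No RMA version is given in the sources used here. Array medians were 6.89 to 6.97, and the number of arrays limits the precision. Strain contrasts within a sex used limma 3.58.1 in R 4.3.3 on 12 arrays (Bonferroni-adjusted p under 0.05, following the methods), and the sexes over both strains, within each strain, and the interaction with Benjamini-Hochberg adjustment over 28853 probe sets. Genes were named by their own annotation: 21159 probe sets (73.3%) carry 1 symbol, 1881 several and 5813 none. The members and the lists of relatives and markers were chosen with earlier results of these data known. Named genes were all members, their 3 most similar genes, their 3 neighbours on each side and the fixed lists. The limma fits were run on simulated arrays with independent noise for each probe set and array. Real arrays share deviations, so the simulation does not measure the error rate in these data. RefSeq annotation was GRCm38.p6, used for names, neighbour order and promoter windows. Alternatives changed the test, the threshold, the normalisation, the filter on low values (40th percentile), the background percentile, or left out arrays; leaving out BPN/3J female arrays 2 and 5 together was added after seeing the data. The qPCR measurements, signals of single probes and strain sequence under the probes were not analysed here. Plots used matplotlib 3.10.9.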

Additional observations from a re-analysis of the deposited data

Results flagged for a closer look

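The strain difference in females minus that in males was 0.71 for *Tmem267*, 0.69 for *Vwa1* and 0.37 for *Lrmda* on the log2 scale, and the difference itself was tested and called by the interaction in limma. In all 3 the gene was lower in BPH/2J in both sexes, by less in females.

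Of 36 groups of 6 arrays examined, 2 had an array that stood apart from the others, where chance would pick about 1 in 20. The highest *Lrmda* array of the BPH/2J females lay above the others by 0.75 of the range of the group, and the lowest *Pak6* array of the BPN/3J males lay below by 0.64.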

How the results depend on the processing

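The strain differences of the 9 genes kept their direction and moved by less than the SD within groups in 180 alternative values in males and 189 in females. Much of this was fixed beforehand. Settings that change the test, the threshold, the probe sets kept or the replicate block return the same estimate, and leaving out 1 array shifts a mean little. Whether the strain differences stayed past the threshold in each alternative was not checked. In 288 values of the sex difference 4 lost and 2 gained a call, in 288 of the interaction 2 lost and 3 gained one, and 0 were reversed. Probe sets called in males numbered 740, and were 321 with the replicate number as a block, 4381 with Benjamini-Hochberg adjustment, 1082 with trend and robust settings and 447 with the methods' t-test; those called in females numbered 681, and were 1022 with trend and robust settings, 304 with the block, 4180 with Benjamini-Hochberg adjustment and 398 with the methods' t-test. With Bonferroni adjustment 4151 probe sets differed between the sexes over both strains, 1367 within BPN/3J and 1361 within BPH/2J, and 104 had an interaction. Under it the interactions of *Lrmda* (adjusted p = 0.849 by limma) and *Vwa1* (adjusted p = 0.0747 by limma) and the sex differences of *Plekhb1* and *Pak6* were not called. The number of genes below the ceiling on all arrays of the lower strain was 0 with the 90th percentile of the reference, 2 with the 99th (*Zfp605* and *Sectm1a*) and 0 with the 20th percentile of all probe sets. Deviations of same-numbered arrays correlated with no steady sign (r = −0.567 to 0.444), and the main fits did not treat the numbers as pairs. Arrays of different numbers were not compared, so these values cannot decide whether the numbers pair the mice. With the replicate block the *Sectm1a* interaction passed (adjusted p = 0.022 by limma). Leaving out 1 array gave 570 to 623 calls in males, 517 to 563 in females, 11397 to 11895 for sex, 7582 to 8135 and 7357 to 7942 within BPN/3J and BPH/2J, and 424 to 534 for the interaction.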
